A study of Mus musculus with 29 samples.

Results

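The genes described here are 10 markers and regulators of the epithelial-mesenchymal transition, the loss of epithelial traits and gain of mesenchymal ones: the cadherins Cdh1 and Cdh2, the matrix gene Fn1, the cytoskeletal gene Vim, the transcription factors Zeb1, Zeb2, Snai1, Snai2 and Twist1, and the surface receptor Cd44. They were chosen by symbol as a familiar list, with earlier results of these data known. All 10 were found among the 35199 genes of the deposited tables. The study activated Pparg, a nuclear receptor of luminal urothelium, in basal cells of the mouse bladder, and RNA-seq libraries were made from sorted cells and from laser-captured tumors. Values are normalized counts, scaled by the authors within each table, so that levels are compared only inside a table, and between genes only to name the most abundant of a list.

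Sorted urothelium is represented by 4 control libraries, labelled wild type, and 5 mutant libraries, labelled K5VP16;Pparg+/-, all untreated with carcinogen and in homeostasis, taken 4 days after tamoxifen. Tumors came from mice given 0.05% BBN, a bladder carcinogen, in drinking water for 5 months, and were collected 4 months after tamoxifen. These are 3 basal tumors of wild-type animals and, from K5VP16;Pparg+/- animals, 3 luminal tumors and 3 regions each of a luminal and a basal-like domain. The labels name these domains as the top and the bottom of luminal tumors. By the study's methods, mice of both experiments were 8 to 12 weeks old when tamoxifen was given. The study's methods give the sorted controls as K5;mTmG and state that GFP-positive cells were collected. For captured tumors the methods name only controls, while the study's results and figures give VP16;Pparg fl/fl in some places and K5;mTmG in others. The data here cannot decide between these and the labels. The allele puts VP16;Pparg, an always active form of the receptor, and EGFP behind a stop cassette in ROSA26, and Krt5CreERT2 removes that cassette. It therefore acts in cells that had expressed Krt5 when tamoxifen was given, and in their descendants. The labels tie no captured region to an animal, and p-values here measure only the spread between these samples.

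In the epithelial-mesenchymal transition, cells take apart the junctions that E-cadherin, the product of Cdh1, builds between neighbours, and gain N-cadherin, vimentin and fibronectin, which serve motility and matrix. Factors of the Snail, Zeb and Twist families repress Cdh1 by binding E-boxes, and TGF-beta is a well known inducer of them. Fibroblasts, smooth muscle, endothelium and leukocytes express many of the same mesenchymal genes in their normal state, and Cd44, a receptor for hyaluronan, is a marker of basal urothelial cells.

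Promoter sequences are shown for Cd44 and Vim, whose levels were tested below, and for the 2 members with a match to a searched motif, Snai1 and Zeb2. Of the 10 members, 5 had an entry in the RefSeq promoters of GRCm38.p6 (Cd44, Snai1, Twist1, Vim and Zeb2, the last with 4 starts), and Cdh1, Cdh2, Fn1, Snai2 and Zeb1 had none. The 250 bases before the start were searched on both strands for the E-box CACCTG bound by Snail and Zeb factors, the AP-1 motif TGANTCA and the nuclear receptor motif AGGTCA. Matches are in capitals, and none overlaps another. Among 32851 promoters of this length, 17.2% held CACCTG, 6.75% TGANTCA and 14.0% AGGTCA. Snai1 held 1 CACCTG, beginning 126 bases before its start, and the Zeb2 start shown held 2 matches to TGANTCA, at 189 and 132 bases. The other 3 Zeb2 starts, Twist1, Cd44 and Vim held no match. Cd44 (chr2:102901666-102901915, minus strand), Snai1 (chr2:167537945-167538194, plus strand), Vim (chr2:13574061-13574310, plus strand) and Zeb2 (chr2:45110278-45110527, minus strand) read as follows, and a match describes letters only.
Cd44: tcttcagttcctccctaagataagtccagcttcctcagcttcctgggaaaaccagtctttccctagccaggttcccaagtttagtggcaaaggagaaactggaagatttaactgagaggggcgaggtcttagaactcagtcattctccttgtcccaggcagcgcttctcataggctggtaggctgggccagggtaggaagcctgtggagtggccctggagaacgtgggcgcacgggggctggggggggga
Snai1: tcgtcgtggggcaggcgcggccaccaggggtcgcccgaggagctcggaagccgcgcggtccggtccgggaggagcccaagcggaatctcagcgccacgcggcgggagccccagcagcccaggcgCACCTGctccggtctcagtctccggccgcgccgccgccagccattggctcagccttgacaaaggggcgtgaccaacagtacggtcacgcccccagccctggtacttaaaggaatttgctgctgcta
Vim: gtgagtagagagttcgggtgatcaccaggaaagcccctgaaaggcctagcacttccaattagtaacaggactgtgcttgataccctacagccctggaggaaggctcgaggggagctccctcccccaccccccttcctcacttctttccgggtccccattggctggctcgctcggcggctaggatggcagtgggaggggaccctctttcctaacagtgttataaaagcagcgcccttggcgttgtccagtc
Zeb2: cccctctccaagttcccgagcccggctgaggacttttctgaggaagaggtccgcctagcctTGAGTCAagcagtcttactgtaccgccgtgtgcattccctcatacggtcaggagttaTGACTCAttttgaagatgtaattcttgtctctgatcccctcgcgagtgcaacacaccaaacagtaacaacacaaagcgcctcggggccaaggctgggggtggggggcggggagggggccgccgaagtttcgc

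Markers of the labelled tissue were present in the sorted cells, the basal keratin gene Krt5 with 91106 to 109572 normalized counts in controls and 62918 to 93817 in mutants. Upk3a, a uroplakin of luminal cells, was also present in controls of this basal gate, at 117051, 90881, 40840 and 50732 normalized counts in control 1 to 4. The sum of 4 Y-linked genes (Ddx3y, Eif2s3y, Kdm5d and Uty) was 404 normalized counts in control 1 and from 338 to 395 in the mutants, against 9030, 9177 and 9046 in control 2, 3 and 4. Among tumors, luminal tumor 3 stood apart from luminal tumor 1 and 2 in markers of stroma, described with the results below, and in the basal keratin Krt14 (95586 normalized counts, against 16891 and 2431). Calls of named genes at 4 days are also given among the libraries with low Y-linked values alone.

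At 4 days, 3 members rose in mutant cells, the matrix gene Fn1, the cadherin Cdh2 and the receptor Cd44, and no member fell. The mean level of Fn1 went from 974 normalized counts (SD 488, n = 4) in controls to 15019 (SD 12515, n = 5) in mutants, and that of Cd44 from 5100 (SD 528) to 8655 (SD 1124). Cdh1, the epithelial cadherin, was at 40875 normalized counts (SD 5809) in mutants against 33726 (SD 4999) in controls, and did not pass the test. The transcription factor genes lay at overlapping levels in the 2 groups.

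Among the cadherins, Cdh1 had 40761, 33806, 29882 and 30457 normalized counts in control 1 to 4 and 41958, 47218, 40338, 31533 and 43327 in mutant 1 to 5. Control 1 exceeded 2 of the mutants and mutant 4 lay among the other controls, so the groups overlapped. For Cdh1 the log2 fold change was 0.28 (standard error, SE, 0.147, limma adjusted p = 0.320 after Benjamini-Hochberg). Cdh2, the cadherin of neural and mesenchymal cells, had 7.29, 22.7, 28.1 and 32.4 normalized counts in controls and 149.6, 47.5, 108.8, 88.2 and 97.3 in mutants. Every mutant lay above every control, although all values were low. Its log2 fold change was 2.16 (SE 0.471, limma adjusted p = 0.0422). This call of Cdh2 was lost in 8 of the 9 fits without 1 library (limma adjusted p up to 0.102). It was also lost in the table of 3 against 3 libraries (1.50, limma adjusted p = 0.162), without the filter on low values (adjusted p = 0.0534) and without the trend in eBayes (adjusted p = 0.0570).

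Fn1, which encodes fibronectin, had 1463, 453, 1308 and 669 normalized counts in control 1 to 4 and 13725, 5035, 35080, 4142 and 17110 in mutant 1 to 5. All mutants were above all controls, with mutant 3 the highest, and the log2 fold change was 3.67 (SE 0.621, limma adjusted p = 0.0189). The call of Fn1 was lost without control 2 (limma adjusted p = 0.0605), without control 4 (adjusted p = 0.0541) and in the table of 3 against 3 libraries, where the log2 fold change was 4.30 (limma adjusted p = 0.0507). Vim, which encodes the intermediate filament of mesenchymal cells, had 498, 1867, 2131 and 5051 normalized counts in controls and 4910, 1213, 12521, 6924 and 3172 in mutants. Control 4 exceeded 3 of the mutants and mutant 2 lay among the controls, so the groups overlapped, with a log2 fold change of 1.30 (SE 0.740, limma adjusted p = 0.351).

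Of the 5 transcription factors, repressors of epithelial genes, none of those tested passed. Zeb1 had 24.1, 58.5, 45.4 and 145.3 normalized counts in controls and 91.3, 44.7, 296.8, 180.9 and 48.0 in mutants, while Zeb2 spanned 68.3 to 119.7 in controls and 45.6 to 369.8 in mutants. In both genes mutant 3 and 4 were the highest libraries, and the log2 fold changes were 0.86 and 0.56 (limma adjusted p = 0.499 and 0.605). Twist1 had 6.65, 17.6, 19.3 and 56.8 normalized counts in controls and 47.1, 27.4, 194.3, 107.9 and 33.6 in mutants. They overlapped only through control 4, and the log2 fold change was 1.64 (limma adjusted p = 0.217). Snai2, the family member known from basal epithelia, was the single member with a negative log2 fold change, at -0.51 (limma adjusted p = 0.280). It had 1045 to 2903 normalized counts in controls and 1003 to 1321 in mutants. Snai1 stayed under the filter and was not tested. It was listed at 0 in control 1, 2 and 3 and in mutant 2, at 0.965 in control 4, and at 10.5, 7.27, 1.42 and 2.97 in mutant 1, 3, 4 and 5.

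Cd44 had 5651, 4527, 5430 and 4793 normalized counts in control 1 to 4 and 7372, 8642, 8365, 8432 and 10465 in mutant 1 to 5. The 2 groups were narrow and did not overlap, and the log2 fold change was 0.76 (SE 0.114, 95% interval 0.51 to 1.01, limma adjusted p = 0.0116). The call of Cd44 held without each library in turn. In the libraries with low Y-linked values alone, control 1 against all mutants, control 1 lay below every mutant in Cd44, Fn1 and Cdh2. This comparison was added after the data were seen, and gave log2 fold changes of 0.61, 2.93 and 3.49 (limma adjusted p = 0.653, 0.683 and 0.315). With 1 control, that fit assumes that the lone library varies like the mutants, and Y-linked level and genotype cannot be told apart in the other controls.

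In all, 3 of the 9 members tested were called, all higher, and 3 did not overlap between groups, again all higher. Of all 16413 genes tested, 2.85% were called in either direction and 1.77% higher, and 9.18% did not overlap in either direction and 4.67% higher. The median log2 fold change was 0.86 over the members tested and 0.0045 over all genes tested. Limma called 290 genes higher and 177 lower, or 270 and 287 after quantile normalization, and 8 in all among the libraries with low Y-linked values. The total of 467 dropped without control 2, 3 or 4 (154, 129 and 169 genes) and without mutant 1 or 3 (311 and 228).

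**Figure D1:**
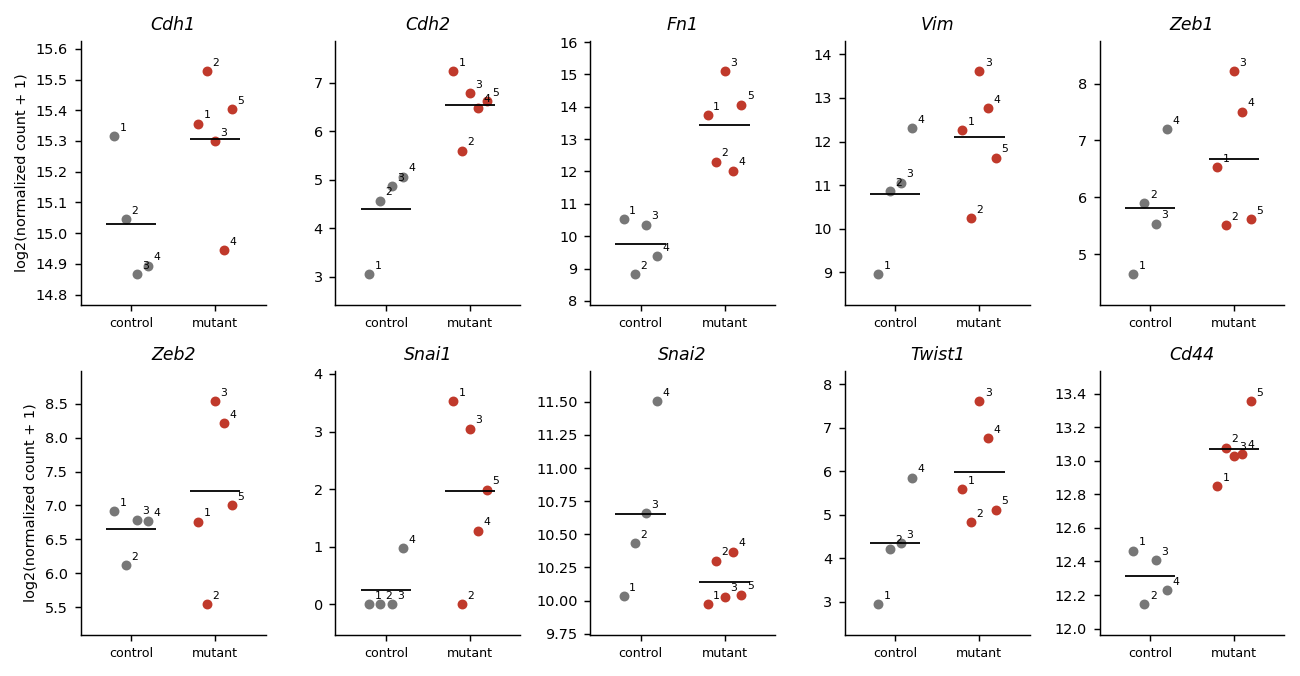
Levels of the 10 genes in sorted cells at 4 days, as log2(normalized count + 1) on the vertical axis, with each library numbered, controls in grey, mutants in red and the group mean as a line. Fn1, Cdh2 and Cd44 separate the groups (log2 fold changes 3.67, 2.16 and 0.76), while Vim, Zeb1 and Twist1 spread widely in both, and Zeb2 in mutants.

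Genes that work beside the members gave a mixed picture at 4 days. Of 19 other mesenchymal effectors 2 were called higher, the collagen cross-linking enzyme Lox (54.1 against 556.2 normalized counts, log2 fold change 2.90, limma adjusted p = 0.0310) and S100a4 (433.4 against 1034, 1.22, adjusted p = 0.0312), and 0 lower. Of 23 other epithelial junction and surface genes 1 was called, the adhesion molecule Epcam, whose mean went from 12503 to 7684 normalized counts (log2 fold change -0.72, limma adjusted p = 0.0189). The limma calls of Lox and S100a4 were each lost in 6 of the 9 fits without 1 library, and that of Epcam in 3. Without the trend those of Lox and S100a4 were lost (limma adjusted p = 0.0563 and 0.0568). In the table of 3 against 3 libraries Lox, S100a4 and Epcam all lost their calls (limma adjusted p = 0.117, 0.143 and 0.0806). Among the libraries with low Y-linked values, with 1 control, their log2 fold changes were 2.92, 1.73 and -0.77, none smaller in size, and none was called (limma adjusted p = 0.685, 0.454 and 0.630). No gene was called by limma among 10 adherens junction partners of Cdh1, 12 regulators of the epithelial state, 8 other transition factors tested, 18 TGF-beta pathway genes or 9 tested ligands and linkers of Cd44. Their most abundant genes were Ctnnb1 (log2 fold change 0.57), Klf5 (-0.49), Tcf3 (-0.17), Tgfbr2 (0.22) and Ezr (0.34).

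Markers of fibroblasts were also present in these libraries, although GFP-positive cells of the Krt5 lineage had been collected. In bulk samples fewer cells of a type and less RNA per cell cannot be told apart. The summed level of 10 fibroblast markers was 13094, 26656, 45038 and 88863 normalized counts in control 1 to 4 and 94672, 36337, 237102, 152442 and 77447 in mutant 1 to 5, with no marker listed at 0. Dcn was the most abundant of them in all libraries but mutant 5, where it was Col3a1 (24840 normalized counts), and reached 112147 in mutant 3. Of the 9 fibroblast markers tested, 8 had positive log2 fold changes and 2 were called higher, Col6a1 (2.71, limma adjusted p = 0.0211) and Lum (2.70, adjusted p = 0.0303), with a median of 2.04, calls lost in 2 and 6 of the 9 fits without 1 library. That of Lum was also lost without the trend (limma adjusted p = 0.0570). In the table of 3 against 3 libraries Col6a1 and Lum both lost their calls (2.19 and 2.14, limma adjusted p = 0.118 and 0.197). Against the 1 control with low Y-linked values both changes were larger, 3.59 and 2.99, and neither was called (limma adjusted p = 0.331 and 0.619). Vim nearly kept the order of this sum over the libraries, being lowest in control 1 and highest in mutant 3 and 4. Fn1 too was highest in mutant 3, with the largest sum. Control 4 held a larger marker sum than mutant 2 or 5, with 669 normalized counts of Fn1 against 5035 and 17110, and with 4793 of Cd44 against 8642 and 10465. The part of the markers in the levels of Vim, Fn1 and Cd44 was not tested.

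Markers of other cell types were summed in the same way. The 6 smooth muscle markers summed to 192, 267, 174 and 1042 normalized counts in control 1 to 4 and to 2719, 410, 1359, 645 and 843 in mutants, all 6 with positive log2 fold changes (median 1.75) and 0 called by limma. The 6 endothelial markers summed to at most 1367 normalized counts, in mutant 3, with Cdh5 listed at 0 in all libraries but mutant 1, and the 6 leukocyte markers to at most 1187, in mutant 5. Of either list 0 were called by limma. The most abundant genes of the smooth muscle, endothelial and leukocyte lists were Acta2 (log2 fold change 2.09), Kdr (0.97) and Cd68 (0.71). Of these only Cd68 did not overlap between groups. The part of these markers in the members' levels was not tested.

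In luminal tumors against basal tumors, Fn1 was the single member that passed the test. It fell from a mean of 13394 normalized counts (SD 6120, n = 3) to 726 (SD 1118, n = 3), and its log2 fold change, a difference of mean log2 levels, was -5.71. Vim, Zeb2 and Cd44 also lay lower in every luminal tumor than in any basal tumor without passing the test, Vim at a mean of 682 normalized counts against 6334. Cdh1 was at a mean of 15319 normalized counts (SD 7393) in luminal and 8460 (SD 5130) in basal tumors, with overlap. Of the luminal tumors, number 1 and 2 had low sums of fibroblast and smooth muscle markers, and number 3 higher ones.

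Among the cadherins, Cdh1 had 4924, 14343 and 6112 normalized counts in basal tumor 1 to 3 and 20362, 18762 and 6833 in luminal tumor 1 to 3. Basal tumor 2 was as high as a luminal tumor and luminal tumor 3 as low as a basal one, and the log2 fold change was 0.87 (SE 0.511, limma adjusted p = 0.407). Cdh2 had 40.3, 6.34 and 53.5 normalized counts in basal and 50.7, 5.98 and 0 in luminal tumors, with a log2 fold change of -1.84 (SE 1.67, limma adjusted p = 0.603). Each group held high and low libraries of Cdh2.

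Fn1 had 19870, 7707 and 12604 normalized counts in basal tumors and 74.2, 87.9 and 2017 in luminal tumors. No luminal tumor came near a basal one, and luminal tumor 3 was far above luminal tumor 1 and 2. Fn1 had a log2 fold change of -5.71 (SE 1.09, limma adjusted p = 0.0368). The call of Fn1 was lost in 7 of the 8 fits without 1 library, luminal tumor 3 being the exception (log2 fold change -7.25, limma adjusted p = 0.00311 without it), and the adjusted p reached 0.138 without basal tumor 1. It was also lost without the filter (limma adjusted p = 0.0641), without the trend (adjusted p = 0.101) and with the domains left out of the fit (adjusted p = 0.0611). Vim had 6356, 4688 and 7959 normalized counts in basal and 197, 10.2 and 1840 in luminal tumors, without overlap. Vim had a log2 fold change of -5.28 (SE 1.44, limma adjusted p = 0.0993). It passed without luminal tumor 3 (-7.04, limma adjusted p = 0.0162) and with array weights (-5.74, adjusted p = 0.0465), and shrank to -3.36 without luminal tumor 2 (adjusted p = 0.141).

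Of the transcription factors, Zeb2 had 681.3, 536.5 and 351.8 normalized counts in basal and 29.7, 8.24 and 210.8 in luminal tumors, and Zeb1 had 125.2, 94.3 and 502.5 against 2.51, 209.3 and 7.94. Zeb2 did not overlap, while luminal tumor 2 carried Zeb1 above 2 of the basal tumors. Their log2 fold changes were -3.69 and -3.28 (SE 1.21 and 1.70, limma adjusted p = 0.153 and 0.344), and Zeb2 passed without luminal tumor 3 (-4.91, limma adjusted p = 0.0363). Snai1 had 56.5, 47.0 and 108.3 normalized counts in basal and 0, 2.32 and 83.1 in luminal tumors. Snai2 had 2301, 4138 and 2458 against 1178, 293 and 3209, and Twist1 had 90.4, 191.1 and 173.4 against 157.4, 1.16 and 85.4. In each of Snai1, Snai2 and Twist1, luminal tumor 2 was low and another luminal tumor lay within the basal range. The log2 fold changes were -3.36, -1.47 and -2.23 (limma adjusted p = 0.339, 0.336 and 0.502). Without luminal tumor 2 those of Snai2 and Twist1 shrank to -0.56 and -0.31.

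Cd44 had 13897, 18395 and 12488 normalized counts in basal tumor 1 to 3 and 8045, 4899 and 7892 in luminal tumor 1 to 3. The groups did not overlap, and luminal tumor 3 was at the level of luminal tumor 1, with a log2 fold change of -1.12 (SE 0.316, 95% interval -1.83 to -0.41, limma adjusted p = 0.110). Without luminal tumor 3 it was -1.23 (limma adjusted p = 0.0874). Of the 10 members tested 1 was called, lower, and 4 did not overlap between groups, all lower. Over all 15357 genes tested, 2.2% were called in either direction and 0.938% lower, and 21.5% did not overlap in either direction and 11.6% lower. The median log2 fold change was -2.76 over the members and -0.11 over all genes tested, and quantile normalization moved the latter by 0.13. Limma called 338 genes in all, 194 higher and 144 lower, 3 without luminal tumor 1 or without luminal tumor 2, 14 without basal tumor 1, and 813 without luminal tumor 3. It called 211 without basal tumor 2, 100 without basal tumor 3, and 117 and 116 without luminal domain 1 and 2, which are part of the same fit.

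**Figure D2:**
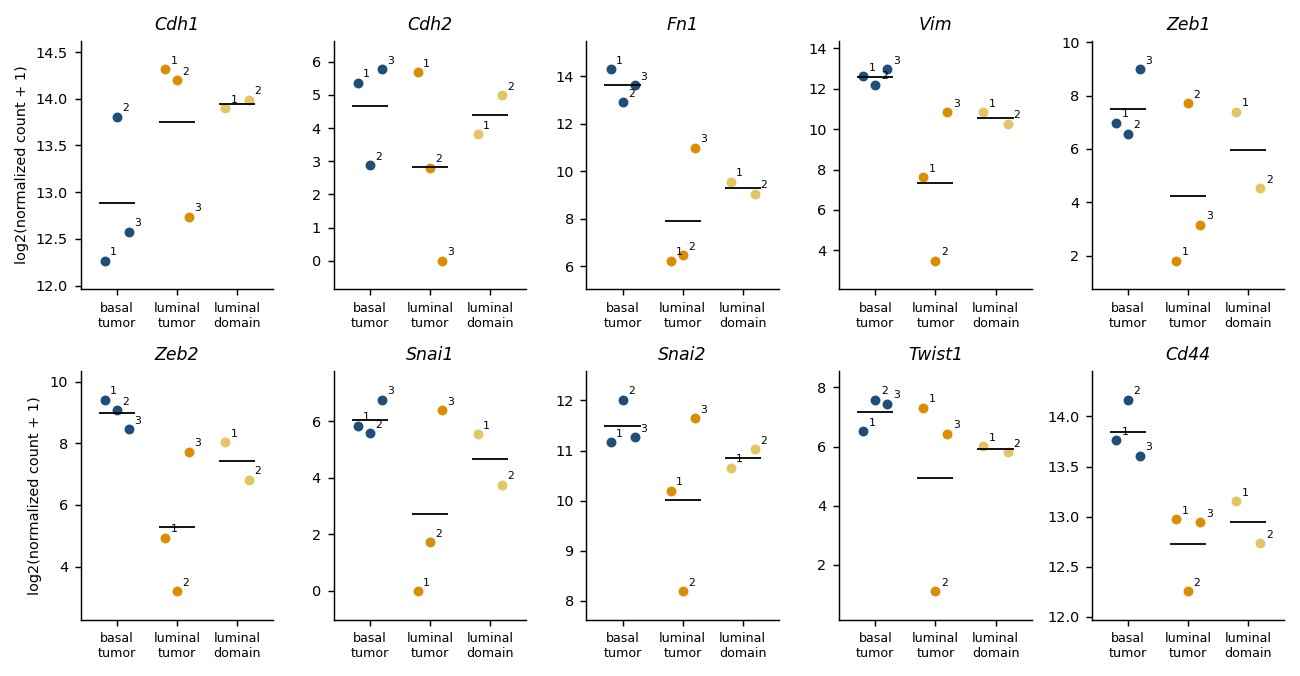
Levels of the 10 genes in laser-captured tumors, as log2(normalized count + 1) on the vertical axis, with each library numbered, basal tumors in blue, luminal tumors in orange, the 2 luminal domains of the same table in yellow and the group mean as a line. In Fn1, Vim, Zeb2 and Cd44 no luminal tumor reached a basal one, and luminal tumor 1 and 2 lay lowest in Fn1, at 74.2 and 87.9 normalized counts.

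Of 23 other epithelial junction and surface genes 6 were called higher and 0 lower, against 194 higher among all 15357 genes tested. Among the 6 were the tight junction gene Tjp3 (log2 fold change 3.36, limma adjusted p = 0.0292), the keratin Krt8 (3.08, adjusted p = 0.0184) and occludin, Ocln (2.65, adjusted p = 0.0403). The median over the list was 1.47, and 2 of the 23 had a negative log2 fold change. The epithelial regulator Elf3 (2.15, limma adjusted p = 0.0292) was the 1 of 12 called, and the nectin Nectin2 (1.89, adjusted p = 0.0426) the 1 of 10 adherens junction partners. Of 19 mesenchymal effectors 4 fell and 0 rose, among them Lox (-7.63, limma adjusted p = 0.0373), Tnc (-6.36, adjusted p = 0.0364) and Bgn (-6.06, adjusted p = 0.0364). Of 18 TGF-beta pathway genes 2 fell, Tgfb3 (-7.77, limma adjusted p = 0.0428) and the activin subunit Inhba (-6.39, adjusted p = 0.0494), and of 9 ligands and linkers of Cd44 tested 1 fell, osteopontin, Spp1 (-6.77, adjusted p = 0.0464). None of 10 other transition factors tested was called by limma, Tcf3 being the most abundant (-0.42). Each of the calls named here was lost in between 3 and 7 of the 8 fits without 1 library, up to a limma adjusted p of 0.165 for Spp1. All were also lost without the trend (limma adjusted p from 0.0510 for Krt8 to 0.127 for Nectin2), and all but that of Krt8 without the filter.

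Summed stromal markers lay lower in every luminal tumor than in any basal tumor. The fibroblast markers summed to 70421, 47481 and 64095 normalized counts in basal tumors and to 922, 236 and 17922 in luminal tumors. The smooth muscle markers summed to 51208, 6010 and 48257 against 240, 150 and 1254. In luminal tumor 1 Fap and Pdgfrb were listed at 0 and in luminal tumor 2 Lum and Pdgfrb, and the most abundant fibroblast markers there were Col1a2 (295.4) and Col3a1 (67.8). All 9 fibroblast markers tested had negative log2 fold changes (median -5.26) and 4 were called lower, among them Pdgfrb (-7.91, limma adjusted p = 0.0324), Col1a2 (-5.38, adjusted p = 0.0472) and Thy1 (-5.34, adjusted p = 0.0352). All 6 smooth muscle markers were negative too (median -6.60), with 3 called lower, Cnn1 (-8.76, limma adjusted p = 0.0428), Acta2 (-6.55, adjusted p = 0.0472) and Tagln (-5.89, adjusted p = 0.0364). Each of these stromal calls was lost in 6 or 7 of the 8 fits without 1 library. Those named here were also lost without the filter (limma adjusted p from 0.0550 to 0.0845), and those of Col1a2, Cnn1, Acta2 and Tagln without the trend. Vim was lowest in luminal tumor 2, where the fibroblast sum was lowest, and Fn1 in luminal tumor 1, while luminal tumor 3, with the largest sum of its group, held the most of both. The part of these markers in the members' levels was not tested.

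Endothelial markers summed to 2295, 3722 and 1762 normalized counts in basal and 747, 374 and 1831 in luminal tumors, and leukocyte markers to 7418, 8188 and 3137 against 1682, 488 and 1888. All 6 endothelial markers (median log2 fold change -3.68) and all 6 leukocyte markers (median -2.66) were negative, 4 and 1 of them without overlap. None was called by limma, Pecam1 (-0.91) and Cd68 (-1.17) being the most abundant. The uroplakins Upk3a (9.99, limma adjusted p = 0.0356), Upk1a (9.63, adjusted p = 0.0364) and Upk2 (8.70, adjusted p = 0.0199) rose. Of all 7 urothelial markers 4 had positive and 3 negative log2 fold changes, 4 and 1 of them without overlap. The level of Pparg rose too (6.74, limma adjusted p = 0.0135). Luminal tumors carry the VP16;Pparg allele, and RNA of this allele and of the endogenous gene cannot be told apart in that level. Of the 8 fits that each drop 1 library, 5 did not call Upk3a, 4 Upk1a and 3 Upk2 (limma adjusted p up to 0.124, 0.130 and 0.0921). The 3 calls were also lost without the trend (adjusted p = 0.0907, 0.0972 and 0.0535), and those of Upk3a and Upk1a without the filter (0.0620 and 0.0641). Pparg was not followed in these fits.

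**Figure D3:**
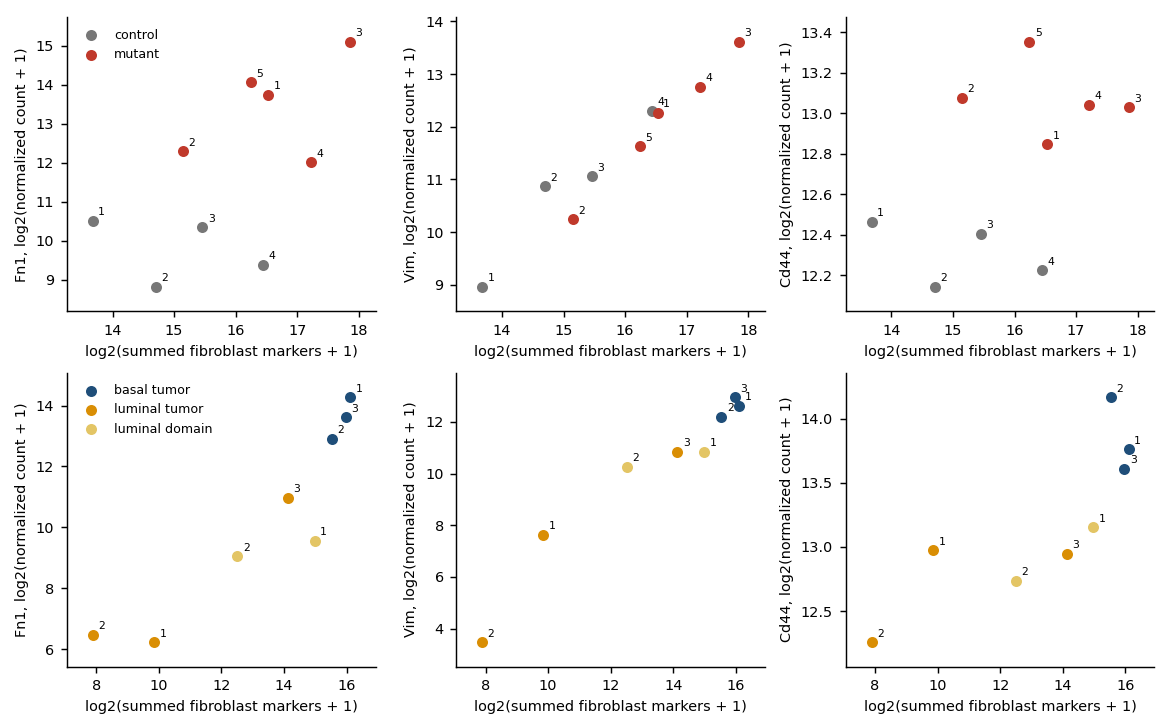
Fn1, Vim and Cd44 against the summed level of 10 fibroblast markers in each library, both as log2 of normalized counts plus 1, with sorted cells at 4 days in the upper panels and tumors in the lower ones. At 4 days Vim and Fn1 are highest in mutant 3, which had the largest marker sum, 237102. The part of the markers in these levels was not tested.

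Luminal domains, captured from lesions that also held basal-like areas, fell in Fn1 and Vim against the same basal tumors. Fn1 went from a mean of 15049 normalized counts (SD 7016, n = 3) to 747 (SD 126, n = 3), and Vim from 6723 (SD 1756) to 1875 (SD 473). Cdh1 lay higher in every luminal domain than in any basal tumor, at a mean of 16410 normalized counts (SD 1157) against 8786 (SD 5249), without passing the test. Basal tumors are shared with the comparison above, and this one was run in a table of its own.

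Cdh1 had 5185, 14808 and 6364 normalized counts in basal tumor 1 to 3 and 16312, 17613 and 15305 in luminal domain 1 to 3. The domains were alike and basal tumor 2 came close to them. Cdh1 had a log2 fold change of 1.06 (SE 0.396, limma adjusted p = 0.189), and it passed only without basal tumor 2 (1.51, limma adjusted p = 0.0382). Cdh2 had 43.1, 6.65 and 56.6 normalized counts in basal tumors and 14.2, 33.9 and 98.0 in domains. The log2 fold change was 0.48 (SE 1.32, limma adjusted p = 0.867), and it turned to -0.43 without basal tumor 2, to -0.22 without luminal domain 3 and to -0.26 in the table of 8 libraries. The ranges of the 2 groups overlapped.

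Fn1 had 22489, 8552 and 14105 normalized counts in basal tumors and 865.9, 615.4 and 758.8 in luminal domains. The domains were tightly grouped far below the tumors, with a log2 fold change of -4.24 (SE 0.389, limma adjusted p = 0.00932). The call of Fn1 was lost without luminal domain 1, 2 or 3 (limma adjusted p = 0.110, 0.108 and 0.0516) and in the table of 8 libraries, which holds 2 domains (-4.30, limma adjusted p = 0.182). Vim had 6811, 4925 and 8433 normalized counts in basal tumors and 2005, 1350 and 2269 in luminal domains, without overlap. The log2 fold change was -1.84 (SE 0.331, limma adjusted p = 0.0371). The call of Vim was lost in 5 of the 6 fits without 1 library, basal tumor 2 being the exception (limma adjusted p up to 0.145). It was also lost without the filter (adjusted p = 0.0660), without the trend (adjusted p = 0.120) and in the table of 8 libraries (-2.04, adjusted p = 0.614).

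Among the transcription factors, Zeb2 had 820.4, 633.5 and 418.9 normalized counts in basal tumors and 320.4, 138.1 and 147.6 in domains, and Twist1 had 95.2, 197.2 and 180.5 against 67.6, 59.4 and 60.3. Neither overlapped, and neither passed, with log2 fold changes of -1.68 and -1.26 (limma adjusted p = 0.203 and 0.464). Zeb1 ranged from 121.0 to 650.5 normalized counts in basal tumors and from 29.9 to 221.1 in domains, Snai1 from 48.6 to 112.9 and from 3.23 to 49.0. Snai2 ranged from 2424 to 4274 and from 1727 to 4162. These 3 overlapped, with log2 fold changes of -1.18, -2.26 and -0.24 (limma adjusted p = 0.593, 0.361 and 0.786), and that of Snai2 turned to 0.02 without basal tumor 2 and to 0.04 without luminal domain 1.

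Cd44 had 14660, 19027 and 13026 normalized counts in basal tumors and 9765, 7394 and 7210 in luminal domains, again without overlap. Its log2 fold change was -0.93 (SE 0.266, 95% interval -1.55 to -0.32, limma adjusted p = 0.110). Of the 10 members tested 2 were called, both lower, while 5 did not overlap on the lower side and 1, Cdh1, on the higher side. Over all 14921 genes tested, 2.53% were called in either direction and 0.824% lower, and 26.8% did not overlap in either direction, 14% higher and 12.8% lower. The median log2 fold change was -1.22 over the members and 0.0097 over all genes tested, and upper-quartile scaling moved the latter by -0.15. Limma called 254 genes higher and 123 lower, or 179 and 134 after upper-quartile scaling, 0 without luminal domain 1 or without luminal domain 2, 3 without luminal domain 3, 22 without basal tumor 1 and 160 without basal tumor 3. In the full fit 3072 genes had an unadjusted p under 0.05.

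Of 23 other epithelial junction and surface genes 5 were called higher and 0 lower, among them Tjp3 (3.57, limma adjusted p = 0.0316), the protease inhibitor Spint1 (2.83, adjusted p = 0.0239) and the keratin Krt19 (2.65, adjusted p = 0.0351). Elf3, the epithelial regulator, rose too (2.59, adjusted p = 0.0258). Of 19 mesenchymal effectors 2 fell and 0 rose, Timp1 (-3.61, limma adjusted p = 0.0443) and Tgfbi (-2.06, adjusted p = 0.0316). Inhba (-3.10, adjusted p = 0.0406) was the 1 of 18 TGF-beta pathway genes called. The other transition factor Sox9 fell (-2.53, limma adjusted p = 0.0468), the 1 of 10 tested. No adherens junction partner and no ligand or linker of Cd44 was called by limma, Ctnnb1 (0.75) and Ezr (0.71) being the most abundant. The call of Sox9 was lost in each of the 6 fits without 1 library, that of Spint1 in 3 and those of the other genes named here in 5, up to a limma adjusted p of 0.154 for Timp1. All were also lost without the trend (limma adjusted p from 0.0750 for Spint1 to 0.118 for Timp1). In the table of 8 libraries all but those of Tjp3 and Elf3 were lost, and without the filter those of Sox9, Timp1, Tgfbi and Inhba.

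Fibroblast markers summed to 73892, 48652 and 66839 normalized counts in basal tumors and to 34458, 6313 and 5580 in luminal domains, with Fap listed at 0 in basal tumor 2 and luminal domain 1. All 9 tested were negative (median -2.77), 0 were called by limma, and Col3a1 was the most abundant (-2.86). Smooth muscle markers summed to 57231, 6298 and 51004 normalized counts against 1911, 1430 and 1548, with Cnn1 listed at 0 in all 3 domains. Of these markers Cnn1 (-9.79, limma adjusted p = 0.0371), Tagln (-4.26, adjusted p = 0.0496) and Acta2 (-3.54, adjusted p = 0.0468) fell, calls each lost in 5 of the 6 fits without 1 library. Each was also lost without the filter, without the trend and in the table of 8 libraries. Luminal domain 1 held the largest fibroblast sum of its group, and its Fn1 level of 865.9 normalized counts was near those of the other domains. Leukocyte markers summed to 7902, 8396 and 3349 normalized counts in basal tumors and to 2190, 3515 and 3743 in luminal domains. Of these markers 4 had negative and 2 positive log2 fold changes (median -1.11), while 2 endothelial markers were negative and 4 positive (median 0.23). No endothelial or leukocyte marker was called by limma, Pecam1 (-0.60) and Cd68 (0.53) being the most abundant. Upk2 (7.58, limma adjusted p = 0.0258) and the level of Pparg (6.31, adjusted p = 0.0239) rose. Of all 7 urothelial markers 4 had positive and 3 negative log2 fold changes, 4 and 2 of them without overlap. Here too RNA of the VP16;Pparg allele and of endogenous Pparg cannot be told apart. The call of Upk2 was lost in 5 of the 6 fits without 1 library (limma adjusted p up to 0.121), without the trend (adjusted p = 0.0761) and in the table of 8 libraries (adjusted p = 0.0512), and Pparg was not followed in these fits. The part of these markers in the members' levels was not tested.

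Between the domains of the mixed lesions, no member and no gene passed the test. Fn1 and Cd44 were higher in every basal-like domain than in any luminal domain, at means of 2770 (SD 1109, n = 3) against 760 (SD 123, n = 3) and of 11866 (SD 1128) against 8338 (SD 1399) normalized counts. Cdh1 overlapped between them, at means of 14640 (SD 1671) and 16721 (SD 1206) normalized counts, with an interval of the log2 difference from -0.65 to 0.26. It was lower in the basal-like domain of each pair with consecutive library numbers, and did not pass with these pairs as a replicate block (-0.20, limma adjusted p = 0.558). The luminal domains are those compared with basal tumors above, scaled here in a table with the basal-like ones.

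Fn1 had 874.5, 629.5 and 775.4 normalized counts in luminal domain 1 to 3 and 3733, 1558 and 3018 in basal-like domain 1 to 3. Each basal-like domain was above all luminal ones, with a log2 fold change of 1.79 (SE 0.386, 95% interval 0.89 to 2.68, limma adjusted p = 0.651). With the consecutive pairs as a replicate block the SE of Fn1 was 0.267 and its limma adjusted p 0.143. Cd44 had 9950, 7631 and 7434 normalized counts in luminal and 12926, 10681 and 11992 in basal-like domains, without overlap. The log2 fold change was 0.52 (SE 0.211, 95% interval 0.03 to 1.00, limma adjusted p = 0.935). The replicate block gave Cd44 an SE of 0.140 and a limma adjusted p of 0.238. Vim had 1981, 1351 and 2269 normalized counts in luminal and 5253, 1152 and 2187 in basal-like domains. Basal-like domain 1 alone was high, and the log2 fold change was 0.37 (limma adjusted p = 0.978), turning to -0.20 without that library.

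Zeb2 likewise was highest in basal-like domain 1, at 806.0 normalized counts, with 103.3 and 247.5 in the others and 266.6, 116.4 and 124.3 in luminal domains. Snai1 had 151.1, 32.8 and 44.5 normalized counts in basal-like and 49.3, 13.9 and 3.30 in luminal domains. They overlapped through luminal domain 1, and the log2 fold change was 2.06 (SE 1.29, limma adjusted p = 0.935). Within each consecutive pair of domains Snai1 was higher in the basal-like one, and with these pairs as a replicate block its limma adjusted p was 0.471. The log2 fold changes of Cdh1, Cdh2, Zeb1, Zeb2, Snai2 and Twist1 lay between -0.20 and 0.80, with limma adjusted p from 0.961 to 0.998. Without 1 library that of Zeb2, at 0.80, ranged from 0.03 to 1.50, and that of Cdh2, at 0.77, from 0.12 to 1.48. That of Zeb1, at -0.08, turned positive in 4 of the 6 fits without 1 library (up to 0.60). That of Twist1, at 0.04, turned negative in 2 (down to -0.26) and after quantile normalization (-0.21), and that of Snai2, at 0.24, in 1 (-0.04).

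Of the 10 members tested 0 were called and 2 did not overlap, both higher in basal-like domains. Over all 14874 genes tested limma called 0, or 0% in either direction, while 757 had an unadjusted p under 0.05, and 10.8% did not overlap in either direction and 5.62% higher. Without the trend in eBayes limma called 20 genes, with the consecutive library numbers as a replicate block 1 gene, lower, and with each other setting 0. The median log2 fold change was 0.45 over the members and 0.0093 over all genes tested.

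Fibroblast markers summed to 35538, 6591 and 5818 normalized counts in luminal domain 1 to 3 and to 108917, 17866 and 14800 in basal-like domain 1 to 3, so that both domains numbered 1 were the highest of their group. Of the 9 tested, 8 had positive log2 fold changes (median 1.57) and 0 were called by limma, Col3a1 being the most abundant (1.50). Smooth muscle markers summed to 1921, 1440 and 1571 normalized counts against 7195, 1929 and 2184, with Cnn1 listed at 0 in all luminal domains and in basal-like domain 2 and 3. The 4 tested were all positive (median 1.29) and 0 were called by limma, Acta2 being the most abundant (0.75). Within each consecutive pair of domains both the fibroblast sum and Fn1 were higher in the basal-like one. With these pairs as a replicate block Col3a1 was still at 1.50 (SE 0.194, limma adjusted p = 0.143). The order of Fn1 among basal-like domains was not that of the fibroblast sum, basal-like domain 3 holding 3018 normalized counts of Fn1 with the lowest sum. The part of these markers was not tested. No gene of the other lists was called by limma. The most abundant were Krt19 (-0.52), Ctnnb1 (-0.44), Sparc (-0.31), Ezr (-0.15), Klf5 (-0.10), Tgfbr2 (-0.02) and Tcf4 (0.14). Among endothelial, leukocyte and urothelial markers they were Emcn (-0.11), Cd68 (-0.76) and Krt14 (0.81). Of 19 mesenchymal effectors 12 were positive (median 0.50), of 17 TGF-beta pathway genes tested 12 (median 0.11). Only 4 of 23 other epithelial genes were positive (median -0.33). Of 6 leukocyte markers 4 were positive (median 1.16), 1 without overlap, and of 6 endothelial markers 3 (median -0.01). Of 7 urothelial markers 3 were positive and 4 negative (median -1.14).

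**Figure D4:**
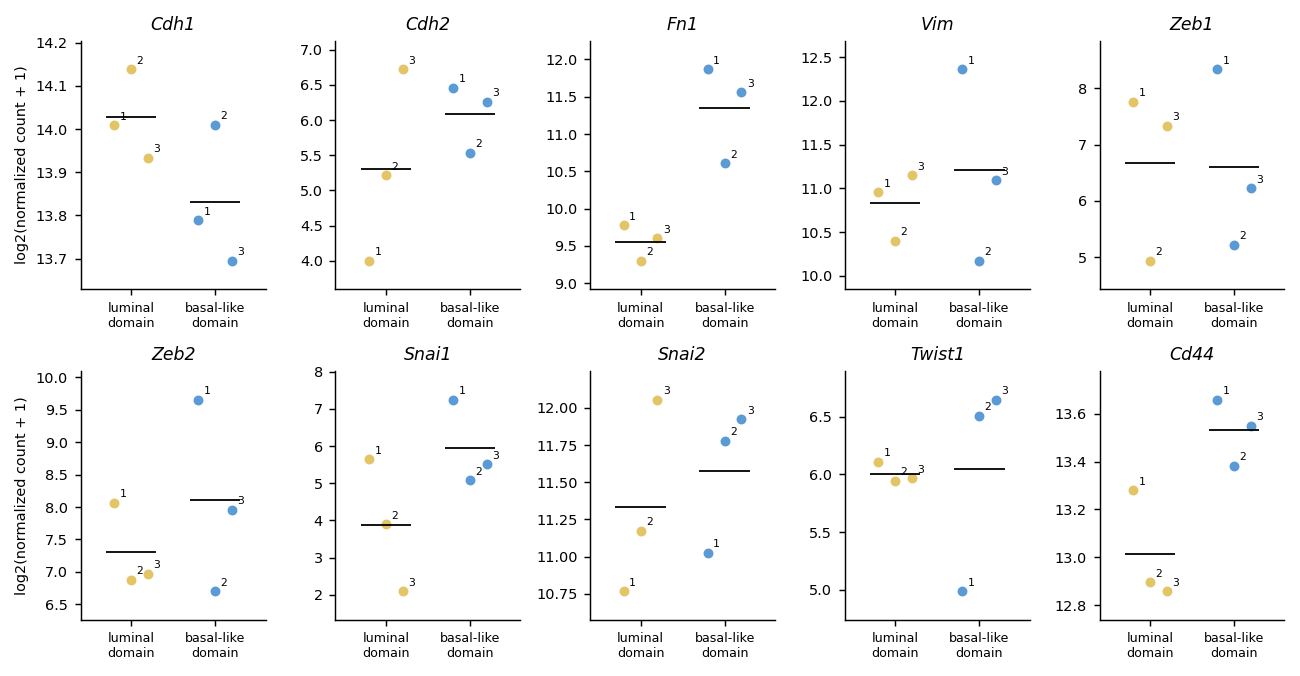
Levels of the 10 genes in the domains of mixed lesions, as log2(normalized count + 1) on the vertical axis, with each library numbered, luminal domains in yellow, basal-like domains in blue and the group mean as a line. Fn1 (log2 fold change 1.79) and Cd44 (0.52) do not overlap, and basal-like domain 1 is the highest library in Vim, Zeb1, Zeb2 and Snai1.

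Within the table of 8 tumor libraries, the order of mean levels ran from basal tumors through luminal domains to luminal tumors for Vim (6334, 1535 and 682 normalized counts), Zeb1 (240.7, 94.3 and 73.3), Zeb2 (523.2, 186.9 and 82.9), Snai1 (70.6, 29.2 and 28.5), Snai2 (2965, 1851 and 1560), Cdh2 (33.4, 21.98 and 18.9) and Cd44 (14927, 7971 and 6945). Fn1 (13394 in basal tumors, 641 in luminal domains and 726 in luminal tumors) had its luminal groups in the opposite order, as did Twist1 (151.6, 59.1 and 81.3). Cdh1 was highest in luminal domains (15769), next in luminal tumors (15319) and lowest in basal tumors (8460). For every member the ranges of luminal domains and luminal tumors overlapped, so the order of these 2 groups lay within their spread. Basal tumors stood apart from both only in Fn1, Vim, Zeb2 and Cd44.

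**Figure D5:**
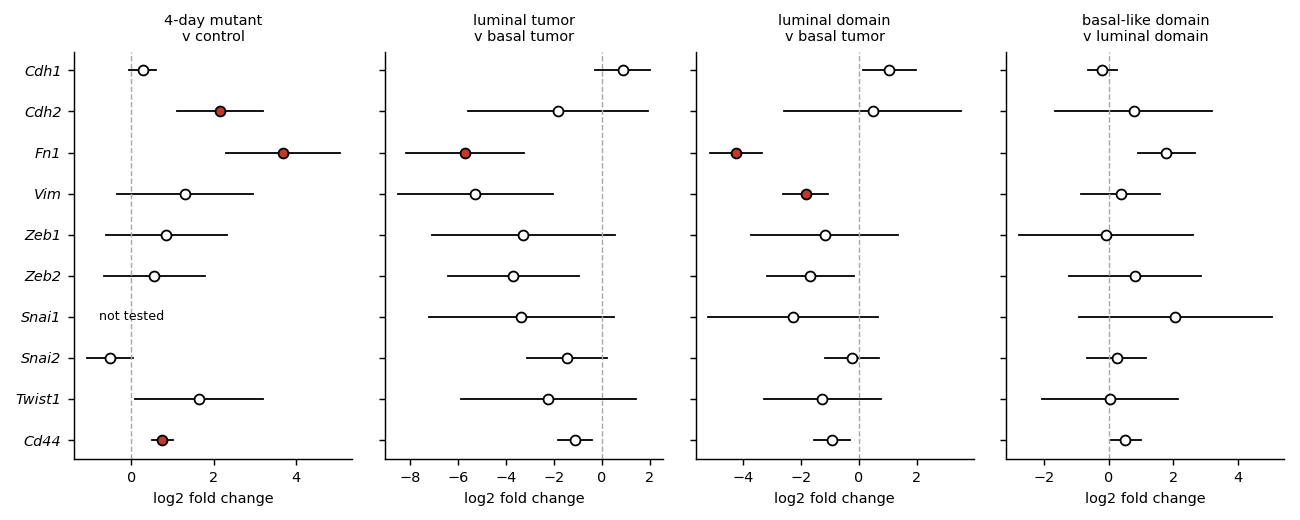
Log2 fold change of each gene in the 4 comparisons on the horizontal axis, with its 95% interval, filled in red where the limma adjusted p was under 0.05. Fn1 was 3.67 at 4 days, -5.71 in luminal tumors, -4.24 in luminal domains and 1.79 between the domains, and Snai1 was not tested at 4 days.

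Over the 8 tumor libraries, 11703 genes were ranked by the correlation of their log2 levels with 3 members, a likeness that carries the group differences with it. Most like Cdh1 were Vamp2 (r = 0.986), Apc (0.972), Tmbim6 (0.968), Cpne3 (0.964) and Lnx1 (0.963). Most like Vim were Htra1 (0.994), Ckb (0.990), Krt14 (0.990), Pcdh17 (0.988) and Cald1 (0.986). Most like Zeb1 were Cryab (0.958), Csrp2 (0.950), Asxl2 (0.945), Klf12 (0.935) and Catsperz (0.935).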

How the data were processed

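Measured here was RNA from 21 of the 29 samples, 9 libraries of sorted cells and 12 of laser-captured tissue, made with SMART-Seq v4 and Nextera XT, a preparation that keeps no strand. The authors quantified reads with kallisto 0.44.0, summed them to genes with tximport and normalized each table with DESeq2 1.18, and the deposited values, named signal here, are normalized counts, each divided by a factor of its own gene and library. For sorted cells the study's methods state a target depth. Read numbers cannot be worked back from the values, so the depth reached, and the precision it gives, is not known. The authors' lists of differential genes, which hold a mean, log2 fold changes and p-values, were not used. The 8 columns of the table with 1 month of BBN and untreated urothelium were not used, since nothing says which columns belong to which condition.

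A gene was tested within a table when as many libraries as its smaller group holds reached 10 normalized counts, in R 4.3.3 with limma 3.58.1 (lmFit, then eBayes with trend, on log2 of normalized count plus 1), and p was adjusted over all genes tested with the Benjamini-Hochberg method at 0.05. Called means under that threshold. The test was tested on simulated data. Luminal tumors were compared with basal tumors in the table of 8 libraries, whose 2 luminal domains add only to the estimate of the spread. Python 3.11.15 with pandas 2.3.3 made the summaries and matplotlib 3.10.9 the figures. The members and lists were chosen with earlier results of these data known. All 10 members are named, and of each other list up to 3 called genes in each direction with the largest change among those whose groups do not overlap or, where none is called, the most abundant gene. Pparg, Dcn, genes that describe the samples and genes listed at 0 fall outside this rule and were named after their values were seen. Exons of Fn1, Zeb1 and Zeb2 overlap antisense genes in GENCODE M21, and reads of these overlaps cannot be assigned to a strand, so their levels are uncertain to that extent.

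Luminal and basal-like domains with consecutive library numbers deviated together from their group means over 14874 genes (r = 0.363, 0.352 and 0.330, against -0.205 to -0.114 for other pairs), which rests on column names, not on labels, and the pairs were used as a replicate block in an alternative. The other alternatives were pseudocounts of 0.5 and 5, no filter and one at 50, eBayes robust or with no trend, upper-quartile and quantile scaling, limma's array weights, another table, other groupings of tumors, and each library left out in turn.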

Additional observations from a re-analysis of the deposited data

Results flagged for a closer look

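Of 20 groups of a member's values at 4 days, 1 was flagged by Dixon's ratio of gap to range: Snai1 was listed at 0.965 normalized counts in control 4 and at 0 in the other 3 controls. With these 3 tied at 0, any value above 0 gives a ratio of 1, so the flag does not show a distant value. Among groups without such ties, chance flags about 1 in 20.

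The contrast of K5VP16;Pparg+/- with wild-type animals had opposite directions at 4 days and in tumors for 2 members whose groups did not overlap in either. In tumors it was also a contrast of luminal with basal tumors. The log2 fold change of Fn1 was 3.67 in mutants against controls at 4 days and -5.71 in luminal against basal tumors, and that of Cd44 was 0.76 and -1.12. The difference between the 2 contrasts was not tested, since they lie in tables scaled apart. Time, carcinogen and the way of taking cells cannot be told apart between them, nor can tumor type and genotype within the tumors. Stromal markers also had opposite directions, with median log2 fold changes of 2.04 and -5.26 for fibroblast and 1.75 and -6.60 for smooth muscle markers. Their part was not tested.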

How the results depend on the processing

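Of the member values under alternatives, 160 of 179 at 4 days, 176 of 189 in luminal tumors, 140 of 158 in luminal domains and 150 of 159 between the domains kept their direction and their side of the threshold. Most members were not called in the full fits, and between the domains none was, so most of these values had no call to lose. In luminal tumors 10 values lost a call, all of Fn1, the single member called. The count of genes called at 4 days, 467, was 269 without the trend, 1054 with array weights, 147 in the table of 3 against 3 libraries and 8 in the libraries with low Y-linked values, and ranged from 129 to 596 without 1 library. In luminal tumors it was 338, and 52 without the filter, 142 without the trend, 142 with only basal and luminal tumors in the fit, 513 with luminal tumors and domains joined, and 3 to 813 without 1 library. In luminal domains it was 377, and 144 without the filter, 107 without the trend, 53 in the table of 8 libraries, and 0 to 467 without 1 library. Fewer libraries also leave less information on the spread, and for the other alternatives the cause was not tested. Leaving out a luminal domain of the table of 8 libraries left 1 in its group, which is assumed to vary like the others.

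Between the domains the count was 0, and 20 without the trend. With the consecutive library numbers as a replicate block it was 1, and the block changed no other call.

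Some directions turned. In the libraries with low Y-linked values the log2 fold change of Cdh1 was -0.0087 and that of Snai2 was 0.11. In the table of 8 libraries that of Cdh2 in luminal domains was -0.26. Between the domains quantile normalization gave -0.21 for Twist1, 0.020 for Klf5 and 0.056 for Tgfbr2, and upper-quartile scaling gave 0.034 for Tgfbr2. Without 1 library the log2 fold change ranged, in luminal domains against basal tumors, from -0.43 to 1.13 for Cdh2 and from -0.59 to 0.040 for Snai2. Between the domains it ranged from -0.20 to 0.89 for Vim, -0.95 to 0.60 for Zeb1, -0.038 to 0.60 for Snai2, -0.26 to 0.57 for Twist1, -0.15 to 0.57 for Tcf4, -0.20 to 0.024 for Klf5, -1.20 to 0.43 for Sparc, -0.37 to 0.16 for Tgfbr2, -0.40 to 0.11 for Ezr and -0.90 to 0.50 for Emcn. The cause was not tested.

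Depth in reads is not known, so how far it limits low genes such as Snai1 and Cdh2 cannot be given, and the log2 scale with a pseudocount understates their changes. Groups of 3 to 5 libraries, captured regions not tied to animals, and 1 control that differs from the others in Y-linked values limit every comparison, and each call of a member but that of Cd44 at 4 days was lost without at least 1 of the libraries.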
